A study of Arabidopsis thaliana with 9 samples.

Results

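The genes described here are 54 loci that encode proteins of the cytosolic ribosome of Arabidopsis thaliana, out of 32833 genes in the deposited table of counts. They were taken by locus identifier and cover 9 protein families of the small subunit (23 loci), the families RPL3 to RPL10a of the large subunit (23 loci in 10 families) and the stalk proteins P0, P1 and P2 (8 loci). In all but 1 of these 22 families more than 1 paralog is listed. Shares and totals of a family below cover the listed loci only and may leave out other paralogs. The group was chosen because the P1 gene AT1G01100 was lower in SUC2:CO than in Col-0. That contrast is therefore given below as a description with no test, and between 35S:CO and SUC2:CO the counts of genes that passed leave out AT1G01100, and those of family totals leave out P1. Counts between 35S:CO and Col-0 include AT1G01100 and P1, although the Col-0 samples of this gene also took part in the choice.

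Seedlings of 3 genotypes were sequenced, with 3 replicates each: wild-type Col-0, 35S:CO and SUC2:CO. CO encodes CONSTANS, a DNA-binding regulator through which long days induce flowering. The 35S:CO plants express it from a viral promoter that works in nearly all cell types. The SUC2:CO plants, labelled SUC2:HA:CO (co-10), carry a tagged CO under the promoter of a sucrose transporter gene of phloem companion cells, in the co-10 background. The Col-0 controls carry neither, so the effects of transgene and background cannot be told apart in that line. Plants of every genotype grew on soil under 16 h light and 8 h dark at 22 °C and were collected 7 days after germination at zeitgeber time 14, in the last part of the light period. The labels do not say how many plants or independent transgenic lines stand behind a sample, so the p-values measure only the spread between these samples, which may be technical.

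Every cytosolic ribosome is built from a small subunit, which binds the mRNA and reads its codons, and a large subunit, which joins the amino acids and releases the chain through a tunnel. In Arabidopsis most of these proteins are encoded by several paralogs, and their mRNAs are typically made in step with each other, at high levels in young and growing tissue. The stalk of the large subunit is a flexible arm in which P0 binds the ribosomal RNA and carries the acidic proteins P1 and P2, which recruit the GTPases of translation.

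Total counts ran from 25563118 to 26636174 per sample. Counts of CO itself (AT5G15840) lay between 7.97 and 10.09 CPM (counts scaled to a common library size, with TMM correction for library makeup) in Col-0, between 576 and 676 CPM in 35S:CO and between 48.6 and 60.3 CPM in SUC2:CO, in the order that the labels imply. Of 9 root markers, 4 (RHD6, EXPA7, EXPA18 and LRX1) had a count of 0 in every sample and none had a count above 8, while 5 markers of green tissue together held 47588 to 67091 CPM. Root marker RNA was thus at or near 0 in samples labelled as seedlings.

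The 54 genes made up a smaller share of the RNA in both transgenic lines than in Col-0, and the smallest in SUC2:CO. Together they took 1.57%, 1.10% and 1.31% of all counts in Col-0 replicates 1 to 3. In 35S:CO they took 0.933%, 0.687% and 1.10%, and in SUC2:CO 0.618%, 0.512% and 0.465%. The SUC2:CO samples lay below all others, while 35S:CO replicate 3 and Col-0 replicate 2 had nearly the same share. On the TMM-scaled values the sums were 15576, 11664 and 11991 CPM in Col-0, 9627, 7038 and 10267 CPM in 35S:CO and 6080, 5381 and 4738 CPM in SUC2:CO, and the genotypes did not overlap. In bulk RNA, fewer cells rich in ribosomal protein mRNA and less such mRNA per cell cannot be told apart.

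**Figure D1:**
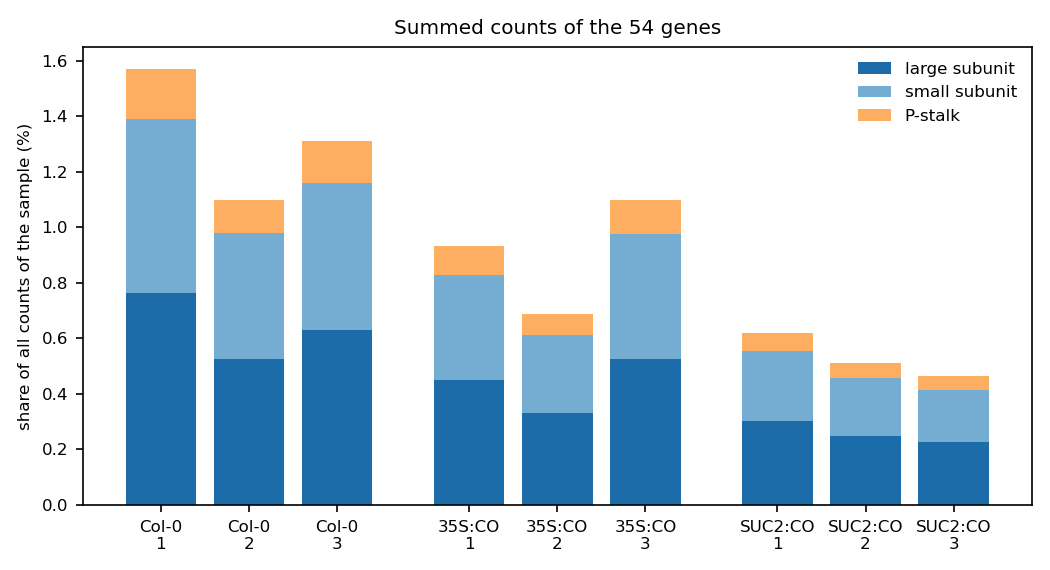
Share of all counts of each sample (%, y axis) taken by the 54 ribosomal protein genes, as stacked bars for large-subunit, small-subunit and P-stalk genes, with 1 bar per sample. The total runs from 1.10% to 1.57% in Col-0, from 0.687% to 1.10% in 35S:CO and from 0.465% to 0.618% in SUC2:CO.

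Within a sample the genes of the group deviated together. Col-0 replicate 1 held the highest value of all 9 samples for 53 of the 54 genes, and SUC2:CO replicate 3 held the lowest for 49. Against the mean of its own genotype, the median gene deviated by 0.25 on the log2 scale in Col-0 replicate 1, with 53 genes above the mean, and by -0.33 in 35S:CO replicate 2, with 53 genes below it. The 54 values of 1 sample are therefore not independent measurements, and a count of genes says less than its size.

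All 54 genes passed the filter on low counts, so none was lost before the tests. Levels per length, in RPKM (CPM per kilobase of exon), had a median over the genes of 190 in Col-0, 131 in 35S:CO and 82.1 in SUC2:CO. The level of a gene over all samples and its log2 difference from Col-0 had a Spearman correlation of -0.10 over the 54 genes in SUC2:CO and of -0.04 in 35S:CO. With the level on the log2 scale the Pearson correlation was 0.12 in SUC2:CO and 0.38 in 35S:CO. These are descriptions of genes that share libraries.

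In SUC2:CO the stalk genes were lower than in Col-0 in every replicate. The P1 gene AT1G01100 had 185, 158 and 166 CPM in Col-0, 127, 88.9 and 124 CPM in 35S:CO and 74.7, 67.7 and 56.5 CPM in SUC2:CO. The 3 genotypes did not overlap, and the SUC2:CO level was 0.391 of that of Col-0 (log2 difference -1.36 ± 0.15 SE). In 35S:CO the level was 0.669 of that of Col-0 (-0.58 ± 0.15), with an adjusted p of 0.0338 in edgeR's quasi-likelihood test. Nothing is read from this p, since the Col-0 samples of this gene took part in the choice of the group. This p exceeded 0.05 when any 1 of 35S:CO replicates 1 and 2, any Col-0 replicate or SUC2:CO replicates 2 and 3 was left out, with log2 differences from -0.39 to -0.63, and with library totals or only the compared genotypes in the fit.

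In SUC2:CO the difference of AT1G01100 lay between those of its 2 paralogs. AT5G47700 had 168, 124 and 138 CPM in Col-0, 102, 70.5 and 115 CPM in 35S:CO and 49.0, 52.5 and 42.5 CPM in SUC2:CO, a log2 difference of -1.58 ± 0.18 between SUC2:CO and Col-0. AT4G00810 had 118, 99.0 and 98.0 CPM in Col-0, 87.4, 68.5 and 87.9 CPM in 35S:CO and 57.0, 62.6 and 51.7 CPM in SUC2:CO, a difference of -0.88 ± 0.13. No genotype overlapped another for either gene. Neither passed the test between 35S:CO and Col-0, at adjusted p of 0.0594 and 0.0862, with differences of -0.58 ± 0.18 and -0.37 ± 0.13. With the replicate number as a block AT5G47700 passed (adjusted p = 0.0412 in edgeR). Between the lines both were higher in 35S:CO, by 1.00 ± 0.18 (adjusted p = 0.0047) for AT5G47700 and by 0.51 ± 0.13 (0.020) for AT4G00810, with the same test.

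Shares of the P1 pool are given as a description, with no test. AT4G00810 supplied 26.3%, 27.3% and 25.6% of the P1 RPKM in Col-0, 28.9%, 31.4% and 28.2% in 35S:CO and 32.9%, 35.7% and 35.8% in SUC2:CO. AT5G47700 supplied 33.8%, 30.9% and 32.6% in Col-0 but 25.5%, 27.0% and 26.5% in SUC2:CO. The share of AT1G01100 overlapped between all genotypes, at 41.2% ± 1.1 in Col-0, 39.5% ± 1.1 in 35S:CO and 38.9% ± 2.4 in SUC2:CO (SD, n = 3).

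The 250 bases before the annotated start of the 3 P1 genes are shown because the paralogs moved in step but by different amounts. They were read from the RefSeq assembly TAIR10.1 on the strand of the gene, and end at the base before its start. Capitals mark matches on either strand to the site II element, TGGGCC or TGGGCT, or to the telo-box, AAACCCTA, both known from promoters of Arabidopsis ribosomal protein genes. AT1G01100 lies on the minus strand and its window is chr1:51211-51460, that of AT4G00810 is chr4:347294-347543 on the minus strand, and that of AT5G47700 is chr5:19328987-19329236 on the minus strand.
AT1G01100: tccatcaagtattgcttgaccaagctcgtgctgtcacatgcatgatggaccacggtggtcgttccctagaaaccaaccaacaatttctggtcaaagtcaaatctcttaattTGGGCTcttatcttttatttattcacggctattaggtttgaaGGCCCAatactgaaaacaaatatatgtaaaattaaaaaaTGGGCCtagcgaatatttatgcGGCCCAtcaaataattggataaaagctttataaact
AT4G00810: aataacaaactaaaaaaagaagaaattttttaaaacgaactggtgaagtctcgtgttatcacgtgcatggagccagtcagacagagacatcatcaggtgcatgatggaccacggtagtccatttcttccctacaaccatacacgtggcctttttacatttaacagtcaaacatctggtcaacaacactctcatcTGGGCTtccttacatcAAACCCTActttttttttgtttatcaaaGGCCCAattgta
AT5G47700: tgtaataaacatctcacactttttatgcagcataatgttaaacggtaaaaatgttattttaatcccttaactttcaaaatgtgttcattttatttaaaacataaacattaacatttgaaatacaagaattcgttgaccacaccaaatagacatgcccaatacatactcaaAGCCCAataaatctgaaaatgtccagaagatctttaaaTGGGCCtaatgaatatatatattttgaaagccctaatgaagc
The AT1G01100 window holds 4 site II matches, beginning 139, 97, 58 and 36 bases before the gene. Its paralog AT4G00810 has 2, at 56 and 12 bases, and a telo-box at 40 bases, while AT5G47700 has 2 site II matches, at 80 and 42 bases.

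**Figure D2:**
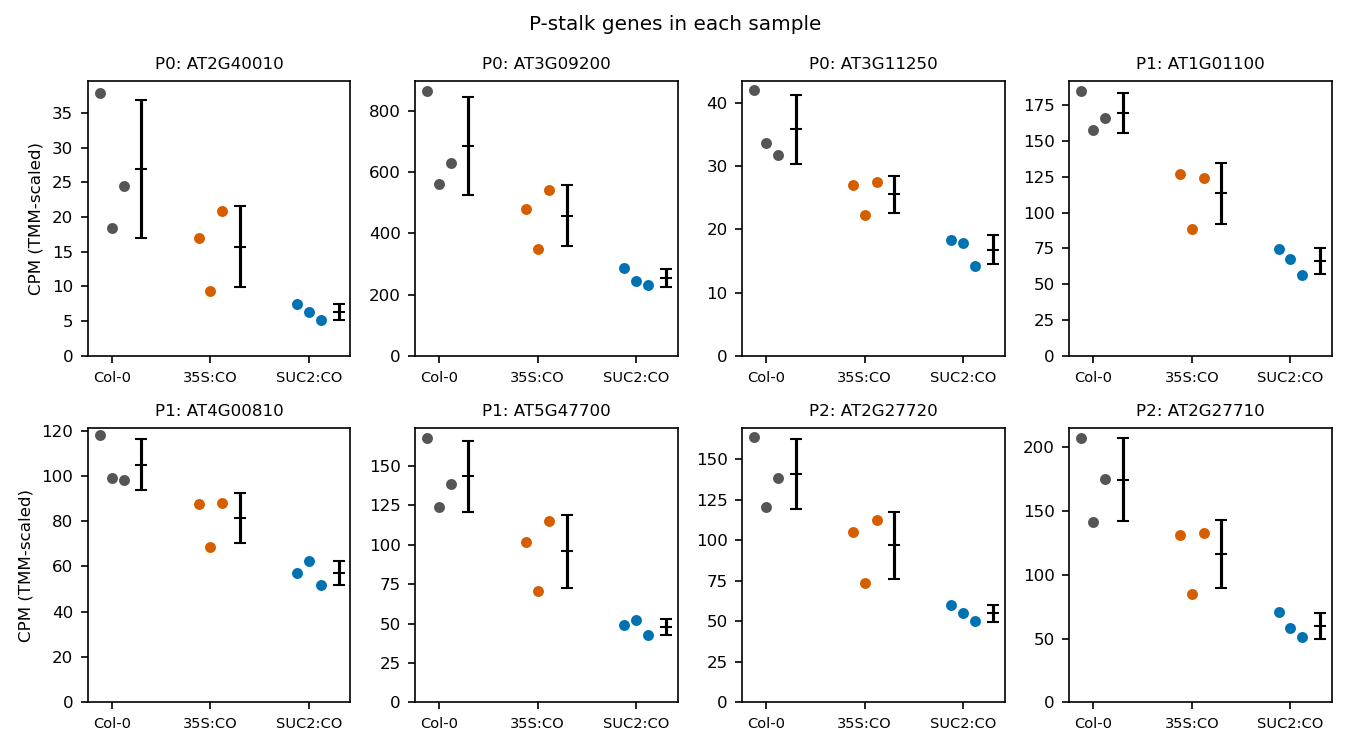
TMM-scaled CPM (y axis, linear from 0, a scale of its own in each panel) of the 8 P0, P1 and P2 genes in each of the 9 samples, with the mean and SD of each genotype beside its points. In every panel the 3 SUC2:CO samples lie below the Col-0 samples, and for AT2G40010 the 35S:CO samples overlap those of Col-0.

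For P0, the anchor of the stalk, a single paralog carried most of the mRNA. AT3G09200 supplied 91.2% ± 0.2 of the P0 RPKM in Col-0, 91.3% ± 0.1 in 35S:CO and 91.2% ± 0.7 in SUC2:CO (SD, n = 3). Its values were 863, 560 and 628 CPM in Col-0, 480, 348 and 542 CPM in 35S:CO and 285, 244 and 231 CPM in SUC2:CO, with no overlap between genotypes. It was lower than Col-0 by a log2 difference of -1.43 ± 0.20 in SUC2:CO and of -0.58 ± 0.19 in 35S:CO (adjusted p = 0.0795, and 0.0283 with the replicate block), and exceeded its SUC2:CO level in 35S:CO by 0.85 ± 0.20 (0.0144). The annotated gene shares 100 bases with AT3G09210 on the same strand, which had at most 2635 counts in a sample, where AT3G09200 had at least 6043.

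The minor P0 genes differed from each other. AT2G40010 had 37.9, 18.5 and 24.4 CPM in Col-0, 17.0, 9.38 and 20.9 CPM in 35S:CO and 7.41, 6.38 and 5.17 CPM in SUC2:CO. Its log2 difference between SUC2:CO and Col-0, -2.09 ± 0.32, was the lowest of the 54 genes, while 35S:CO and Col-0 overlapped (-0.77 ± 0.30, adjusted p = 0.130). AT3G11250 had 41.9, 33.6 and 31.8 CPM in Col-0, 27.0, 22.2 and 27.4 CPM in 35S:CO and 18.2, 17.9 and 14.2 CPM in SUC2:CO, with differences of -1.09 ± 0.14 in SUC2:CO and -0.49 ± 0.14 in 35S:CO (adjusted p = 0.0512, and 0.0315 with the replicate block). Between the lines AT2G40010 was higher in 35S:CO by 1.32 ± 0.32 (adjusted p = 0.0183) and AT3G11250 by 0.61 ± 0.14 (0.0162), both with edgeR.

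Both listed P2 genes followed the same order of genotypes without overlap. AT2G27710 had 207, 141 and 175 CPM in Col-0, 131, 85.0 and 132 CPM in 35S:CO and 71.1, 58.4 and 50.9 CPM in SUC2:CO. AT2G27720 had 163, 120 and 139 CPM, 105, 73.4 and 112 CPM, and 60.3, 54.8 and 49.9 CPM in the same groups. The log2 differences between SUC2:CO and Col-0 were -1.53 ± 0.20 and -1.36 ± 0.17, those between 35S:CO and Col-0 were -0.59 ± 0.20 (adjusted p = 0.0827) and -0.54 ± 0.17 (0.0608). With the replicate block both passed, at adjusted p of 0.0207 and 0.0221 in edgeR. Their shares of the RPKM summed over these listed genes overlapped between genotypes. AT2G27710 held 60.03% ± 1.02 in Col-0 against 57.0% ± 1.8 for the SUC2:CO samples (SD, n = 3).

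In SUC2:CO all 54 genes were lower than in Col-0, and for each of them the highest SUC2:CO replicate lay below the lowest Col-0 replicate. The median log2 difference was -1.27, a level of 0.413 of that of Col-0, with a range from -2.09 to -0.67. Over all 19149 genes tested the median was -0.02. All 54 were lower at an adjusted p under 0.05, against 16.8% of all tested genes lower and 15.5% higher, and 23.2% of all tested genes were lower without overlap. Nothing is read from these counts, since this contrast chose the genes. The medians were alike for the large subunit (-1.27), the small subunit (-1.25) and the stalk (-1.39).

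In 35S:CO, 15 of the 54 genes fell below Col-0, 39 did not pass the test and none rose. The background was 5.48% of all tested genes lower and 6.32% higher at an adjusted p under 0.05. The median log2 difference of the 54 was -0.54, a level of 0.688 of that of Col-0, with a range from -0.93 to -0.34, beside a median of -0.04 over all tested genes. In 52 genes the 35S:CO replicates lay below all Col-0 replicates, which held for 16.6% of all tested genes; AT1G74060, an RPL6 paralog, and AT2G40010 were the exceptions. An unadjusted p under 0.05 was found for 52 genes. This comparison and the preceding share the Col-0 samples, of which replicate 1 was high for nearly every gene. The 15 include AT1G01100, whose Col-0 samples took part in the choice of the genes.

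The number of genes called in 35S:CO depended on the fit. Over all tested genes, same-numbered samples of 35S:CO and Col-0 deviated together. For the 54 genes this did not hold in replicate 3, with a median deviation of 0.20 in 35S:CO and -0.11 in Col-0. With the replicate number as a block 42 of the 54 fell, against 8.31% of all tested genes lower. With no block, the number called was 1 without 35S:CO replicate 1, 2 without 35S:CO replicate 2 and 25 without 35S:CO replicate 3. It was 2 without Col-0 replicate 1 and 9 without Col-0 replicate 2, and 9, 2 and 4 without SUC2:CO replicates 1, 2 and 3, which enter the shared estimate of the spread. The median log2 difference lay between -0.66 and -0.35 in these fits, and all 54 differences stayed below 0.

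The 15 genes that fell in 35S:CO were 5 of the large subunit, 9 of the small subunit and AT1G01100. Both RPL5 paralogs, AT3G25520 and AT5G39740, were among them; RPL5 binds the 5S ribosomal RNA. The smallest adjusted p was that of AT3G57490, a minor paralog of RPS2, a protein beside the entry of the mRNA channel. It had 28.8, 25.5 and 21.1 CPM in Col-0, 14.8, 13.3 and 15.6 CPM in 35S:CO and 9.45, 7.51 and 7.81 CPM in SUC2:CO. The genotypes did not overlap, and its log2 difference in 35S:CO was -0.79 ± 0.14 (adjusted p = 0.00463), with the call kept in every alternative fit. In SUC2:CO it was -1.61 ± 0.14.

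Among the other large-subunit genes, AT3G62870 encodes RPL7a and fell in 35S:CO by 0.70 ± 0.17 on the log2 scale (adjusted p = 0.0250). Its values were 416, 322 and 325 CPM in Col-0, 240, 170 and 246 CPM in 35S:CO and 150, 128 and 114 CPM in SUC2:CO. AT4G36130 encodes RPL8, which lies near the peptidyl transferase centre, and had 141, 95.6 and 101 CPM in Col-0, 70.1, 54.1 and 86.2 CPM in 35S:CO and 37.1, 36.1 and 30.0 CPM in SUC2:CO. It fell in 35S:CO by 0.68 ± 0.19 (adjusted p = 0.0418) and was lower by a log2 difference of -1.71 ± 0.19 in SUC2:CO. It overlaps AT4G36140 on the opposite strand over 295 bases; that gene had at most 558 counts, against at least 785 of AT4G36130, and whether strand was used in counting is not given in the sources used here. AT5G22440 encodes RPL10a, the protein of the L1 stalk, and had 124, 81.6 and 92.5 CPM in Col-0, 71.5, 47.4 and 81.2 CPM in 35S:CO and 33.6, 30.8 and 22.4 CPM in SUC2:CO. Without overlap between genotypes, it differed from Col-0 by -1.78 ± 0.23 in SUC2:CO and by -0.58 ± 0.22 in 35S:CO (adjusted p = 0.125).

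Of the small-subunit genes, AT4G31700 encodes RPS6, the phosphorylation target of S6 kinase, and had 478, 351 and 367 CPM in Col-0, 287, 206 and 319 CPM in 35S:CO and 154, 137 and 122 CPM in SUC2:CO. Its log2 difference from Col-0 was -1.54 ± 0.18 in SUC2:CO and -0.56 ± 0.18 in 35S:CO (adjusted p = 0.0662, and 0.0303 with the replicate block), and the second RPS6 gene, AT5G10360, fell in 35S:CO by 0.51 ± 0.14 (0.0395).

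**Figure D3:**
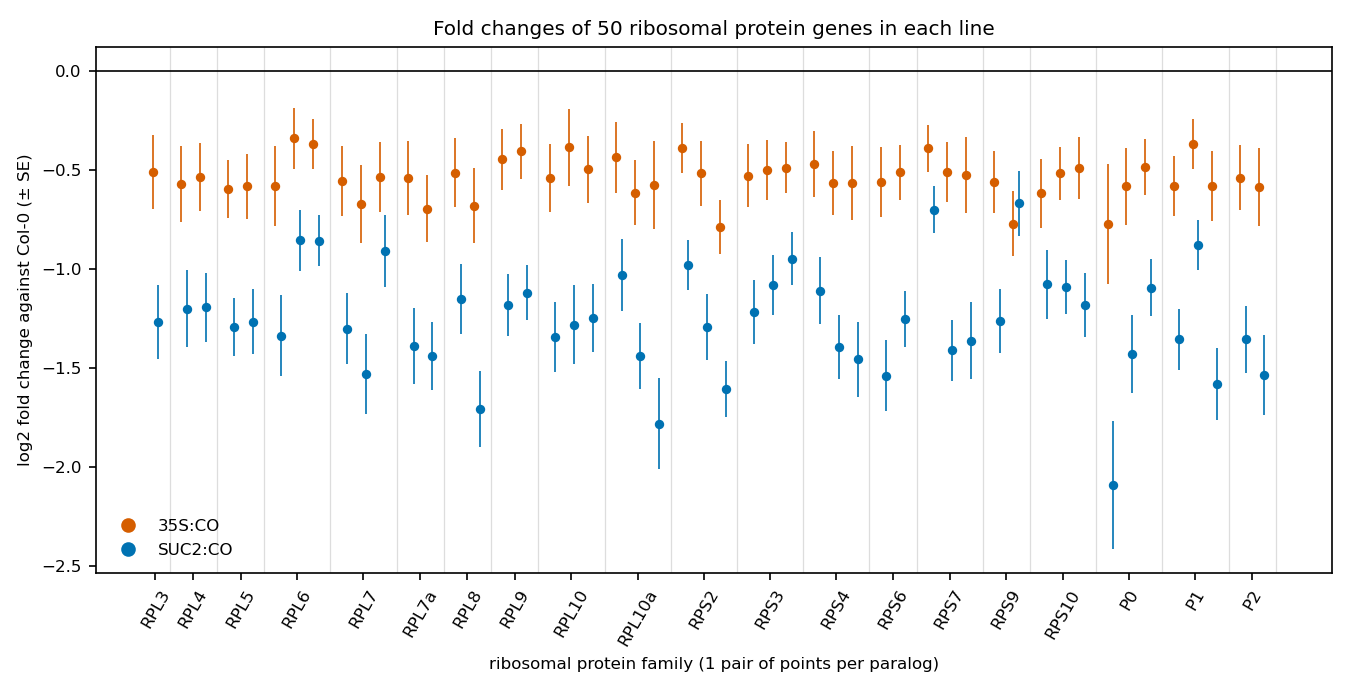
Log2 fold change against Col-0 (y axis, ± SE) of 50 of the 54 genes in 35S:CO (orange) and SUC2:CO (blue), grouped by protein family (x axis, 1 pair of points per paralog). All points lie below 0, from -0.79 to -0.34 in 35S:CO and from -2.09 to -0.67 in SUC2:CO, and AT5G39850 of RPS9 is the gene whose 35S:CO point is the lower of its pair.

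Set against each other, the lines differed for most of the genes. At an adjusted p under 0.05, 48 of 53 genes, AT1G01100 left out, exceeded in 35S:CO their SUC2:CO level and none was lower, against 9.27% of all tested genes higher and 9.5% lower. AT1G01100 was left out because its SUC2:CO samples chose the genes, and its difference was 0.78 ± 0.15. The other genes share those samples with it. The median log2 difference over all 54 was 0.74, 1.67 times the SUC2:CO level, beside 0.01 over all tested genes. In 50 of the 53 the lines did not overlap and 35S:CO was higher, which held for 19.6% of all tested genes. The number called was 28 without 35S:CO replicate 1, 27 without 35S:CO replicate 3, 29 without SUC2:CO replicate 2 and 14 without SUC2:CO replicate 3.

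The 5 genes that did not pass between the lines included AT3G13580 of RPL7, AT1G48830 of RPS7, AT5G39850 of RPS9 and AT4G25740 of RPS10. AT5G39850 was the single gene of the 54 with a log2 difference below 0 between the lines, and that sign held in every alternative fit. RPS9 helps to hold the mRNA in place for decoding. AT5G39850 had 6.51, 8.26 and 5.91 CPM in Col-0, 3.83, 4.26 and 4.01 CPM in 35S:CO and 4.01, 4.32 and 4.67 CPM in SUC2:CO. Both lines lay below Col-0 but overlapped each other, with a difference of -0.10 ± 0.17 between them (adjusted p = 0.706). It fell in 35S:CO by 0.77 ± 0.16 (0.0137 with edgeR), and at -0.67 ± 0.16 its difference in SUC2:CO was the smallest of the group.

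The RPS9 mRNA came mainly from the other paralog, AT5G15200, which had 377, 293 and 296 CPM in Col-0, 227, 173 and 254 CPM in 35S:CO and 148, 135 and 119 CPM in SUC2:CO. Its level in 35S:CO exceeded that in SUC2:CO by 0.70 on the log2 scale, a gap of 0.81 between the paralogs, the widest of any family between the lines. AT4G25740 encodes RPS10, of the head of the small subunit, and had 132, 126 and 98.6 CPM in Col-0, 86.6, 59.9 and 85.9 CPM in 35S:CO and 60.2, 62.4 and 46.5 CPM in SUC2:CO. It fell in 35S:CO by 0.62 ± 0.17 (adjusted p = 0.0436), while the lines overlapped (0.46 ± 0.17, adjusted p = 0.0926).

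With the counts of paralogs summed, all families stood in the same order. In SUC2:CO the 22 family totals were lower than in Col-0 by log2 differences from -1.45 to -1.09, with a median of -1.28 (22 lower at an adjusted p under 0.05, against a background of 16.7%, from which nothing is read). In 35S:CO, 4 of the 22 totals fell, against 5.44% of all tested rows. These were RPL5 (-0.59 ± 0.16, adjusted p = 0.0355), RPS9 (-0.57 ± 0.16, 0.0409), RPL7a (-0.62 ± 0.18, 0.0472) and P1 (-0.52 ± 0.15, 0.0496), and the median over the 22 was -0.54. The P1 total holds AT1G01100, whose Col-0 samples took part in the choice of the genes, so nothing is read from its p. With the replicate number as a block 20 of the 22 fell, against 8.21% of all tested rows. Without 35S:CO replicate 1 or 2, Col-0 replicate 1 or SUC2:CO replicate 2 or 3 edgeR called 0 totals, with 9 to 22 at an unadjusted p under 0.05. The number was 1 without Col-0 replicate 2 or SUC2:CO replicate 1, and was 8 without 35S:CO replicate 3.

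Between the lines the 21 family totals other than P1 were all higher in 35S:CO, by 0.59 to 0.89 on the log2 scale with a median of 0.73, against 9.12% of all tested rows. The P2 total differed most, by 0.89 ± 0.18 (adjusted p = 0.00911 with edgeR), and had 236, 159 and 245 CPM in 35S:CO and 131, 113 and 101 CPM in SUC2:CO. The P1 total holds AT1G01100 and its difference, 0.76 ± 0.15, is a description. The number of totals called was 12 without 35S:CO replicate 1 or replicate 3, 10 without SUC2:CO replicate 2 and 4 without SUC2:CO replicate 3.

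Gaps between paralogs of the same protein varied by family and are given as a description, with no test. In SUC2:CO the gap between the most and least reduced paralog of a family had a median of 0.35 on the log2 scale, and in 35S:CO of 0.15. The widest gaps in SUC2:CO were those of P0 (1.00), RPL10a (0.75), RPS7 (0.71) and P1 (0.70), and the narrowest was that of RPL4 (0.007). The P0 gap rests on AT2G40010, which had 5.17 to 7.41 CPM in SUC2:CO. Within RPL10a the share of AT1G08360 was 35.8%, 34.9% and 34.8% of the family's RPKM in Col-0, 37.8%, 38.4% and 37.8% in 35S:CO and 44.2%, 40.6% and 44.6% in SUC2:CO, with no overlap between genotypes. AT1G48830 supplied 16.6%, 19.1% and 19.0% of RPS7 in Col-0 and 24.6%, 27.2% and 26.6% in SUC2:CO, and its own log2 difference in SUC2:CO was -0.70 ± 0.12. The other RPS7 gene AT3G02560, at -1.41 ± 0.15, overlaps AT3G02570 on the opposite strand over 40 bases, and that gene had up to 5240 counts. In the opposite direction, AT1G18540 went from 51.1%, 47.3% and 51.1% of RPL6 in Col-0 to 44.3%, 41.1% and 39.2% in SUC2:CO.

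**Figure D4:**
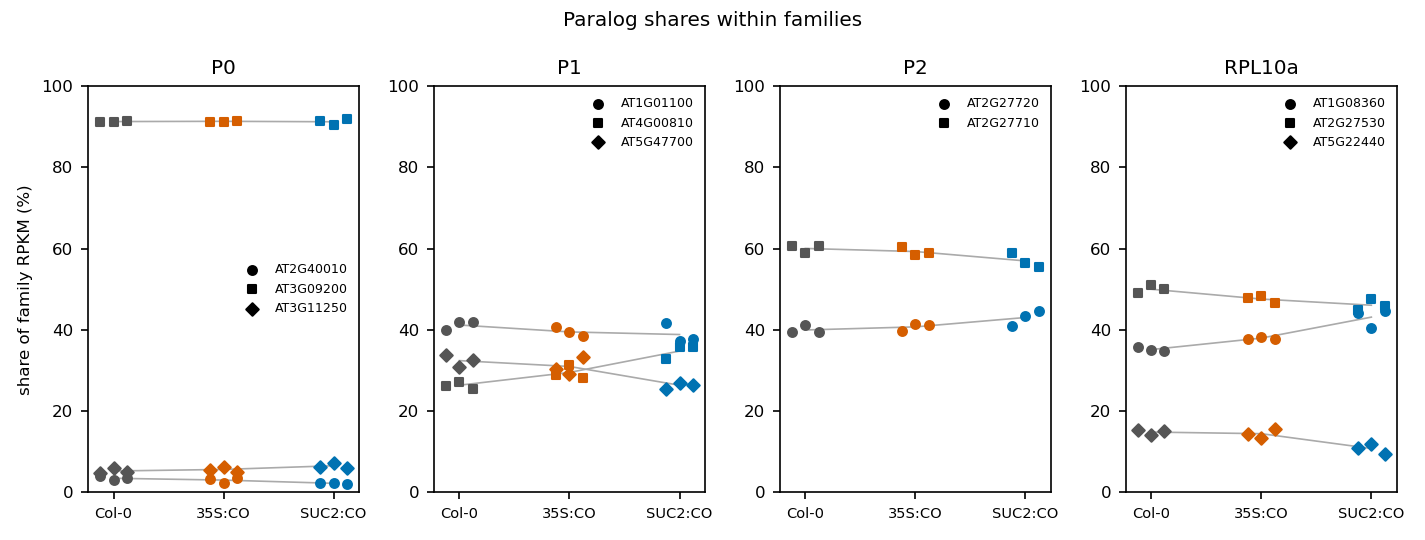
Share of the summed RPKM of a family (%, y axis) held by each paralog of P0, P1, P2 and RPL10a, with 1 point per sample and lines through the genotype means. AT4G00810 of P1 rises from 25.6% to 27.3% in Col-0 to 32.9% to 35.8% in SUC2:CO, while AT3G09200 stays near 91.2% of P0.

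Near-identical paralogs can trade reads in counting. Of the 54 genes, 22 had at least 1 exonic stretch of 50 bases that occurs elsewhere in the TAIR10.1 genome. The share of such stretches was 58.0% in AT1G33140 and 53.7% in AT1G33120, the RPL9 pair, and 28.9% in AT1G58380 of RPS2. It was under 10% in all others, so the split within RPL9, whose log2 differences in SUC2:CO were -1.12 ± 0.14 and -1.18 ± 0.16, is uncertain.

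The upstream windows of the group often held site II. It was matched in 39 of the 54 (72.2%), against 19.2% of 27443 protein-coding genes with a window and 23.2% of the 18455 of these that were tested, with letters read on both strands and overlapping matches each counted. The telo-box was matched in 7 of the 54 (13.0%), against 4.49% of all windows, and both elements in 6, against 1.36%. By part, the telo-box was matched in 5 of 23 small-subunit genes, 1 of 23 large-subunit genes (4.35%) and 1 of 8 stalk genes. In the lists described further on, site II was matched in 67.9% of the other cytosolic ribosomal protein genes and in 66.7% of the ribosome assembly factors. The telo-box was matched in 24.2% of the former and in 6 of the 24 assembly factors. The genes with a site II match had a median log2 difference of -1.27 in SUC2:CO and the 15 without of -1.33, and in 35S:CO the medians were -0.53 and -0.54. Between the lines the medians were 0.74 with a match and 0.69 without. Neither element was matched in these letters in AT5G22440, AT2G27710 and AT2G27720, whose log2 differences between the lines were 1.21, 0.95 and 0.82. The same held for AT5G39850, the gene with a difference below 0 between the lines. Its window at chr5:15949660-15949909 on the plus strand is shown beside the P1 windows as a description.
AT5G39850: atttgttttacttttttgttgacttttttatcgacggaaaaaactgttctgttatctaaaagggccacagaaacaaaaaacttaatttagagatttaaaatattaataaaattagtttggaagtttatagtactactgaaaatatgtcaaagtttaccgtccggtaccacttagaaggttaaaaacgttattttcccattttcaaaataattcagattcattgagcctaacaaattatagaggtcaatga
Its paralog AT5G15200 has 4 site II matches and a telo-box.

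Other parts of the translation apparatus were set beside the 54 genes. Of 155 other cytosolic ribosomal protein genes that passed the filter, out of 165, 60 fell in 35S:CO and none rose, with a median log2 difference of -0.56, against the 5.48% of all tested genes given for this comparison. With the replicate block 122 fell, and with DESeq2 108 of 160 tested. In SUC2:CO 154 were lower, with a median of -1.35, against 16.8% of all tested genes. Between the lines 144 exceeded in 35S:CO their SUC2:CO level, against 9.27% of all tested genes. The most abundant among those that fell in 35S:CO was AT1G67430, at 519 ± 98 CPM in Col-0, 340 ± 66 in 35S:CO and 200 ± 22 in SUC2:CO (SD, n = 3). AT3G04230, named here after its values were seen, was the exception in SUC2:CO at -0.16 ± 0.21, with 3.99 to 6.15 CPM over all samples.

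Of 24 factors of ribosome assembly, 12 fell in 35S:CO and 1 rose, and 21 were lower and 1 higher in SUC2:CO, with medians of -0.68 and -1.39. Of all tested genes 5.48% were lower and 6.32% higher in 35S:CO, and 16.8% and 15.5% in SUC2:CO. In 35S:CO 21 fell with the replicate block and 20 with DESeq2. NUC-L1, a nucleolin that acts in rRNA gene transcription and processing, went from 357 ± 86 CPM in Col-0 to 210 ± 39 in 35S:CO (log2 difference -0.76 ± 0.19, adjusted p = 0.0296 with edgeR) and 136 ± 22 in SUC2:CO (SD, n = 3). FIB1, a fibrillarin that methylates rRNA, fell in 35S:CO by 0.64 ± 0.18 (adjusted p = 0.0436). The single factor that rose was AT4G31420, by 0.35 ± 0.09 (adjusted p = 0.0330), from between 17.4 and 18.9 CPM in Col-0 to between 21.5 and 25.1 CPM in 35S:CO. The related nucleolin gene NUC-L2 had another pattern, at 2.27, 3.65 and 3.06 CPM in Col-0, 0.986, 0.469 and 1.31 CPM in 35S:CO and 2.91, 2.18 and 1.80 CPM in SUC2:CO. It fell in 35S:CO by 1.69 ± 0.36 (adjusted p = 0.0144) and was lower there than in SUC2:CO by a log2 difference of -1.31 ± 0.37 (0.0323). AT4G31420 and NUC-L2 were named after their values were seen.

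The elongation factors, which include GTPases that the stalk recruits, had smaller median differences. Of 11 tested, 3 fell in 35S:CO and 11 were lower in SUC2:CO, with medians of -0.41 and -0.79, and 3 exceeded in 35S:CO their SUC2:CO level. The shares of all tested genes in these 3 counts were 5.48%, 16.8% and 9.27%. In 35S:CO 7 fell with the replicate block and 5 with DESeq2, which also found 7 above their SUC2:CO level. The eEF1A gene AT1G07930 had 427 ± 46 CPM in Col-0, 309 ± 40 in 35S:CO and 243 ± 18 in SUC2:CO (SD, n = 3), and fell in 35S:CO by 0.47 ± 0.13 (adjusted p = 0.0381). LOS1, an eEF2 gene, had 953 ± 137, 748 ± 61 and 566 ± 42 CPM in the same order.

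The TOR and S6 kinase pathway leads to phosphorylation of RPS6 and promotes ribosome production. Of 7 of its genes, 2 rose in 35S:CO and none fell, against 6.32% of all tested genes higher and 5.48% lower. In SUC2:CO 1 was higher, against 15.5% of all tested genes. The S6 kinase gene AT3G08730, listed as PK1, had 81.2, 82.6 and 76.9 CPM in Col-0, 281, 324 and 253 CPM in 35S:CO and 74.9, 77.8 and 80.7 CPM in SUC2:CO. Only the 35S:CO samples stood apart, with a rise over Col-0 of 1.83 ± 0.11 on the log2 scale (adjusted p = 2.23e-06) and a difference from SUC2:CO of 1.88 ± 0.11 (2.92e-06). The second S6 kinase gene, AT3G08720, a close paralog whose reads the counting could have split with it, lay between 10.4 and 14.1 CPM over all samples and overlapped between genotypes. YAK1, the other gene that rose, encodes a kinase that acts against growth downstream of TOR. It had 75.2 ± 2.3 CPM in Col-0, 94.5 ± 2.5 in 35S:CO and 89.5 ± 2.1 in SUC2:CO (SD, n = 3). The adjusted p in edgeR was 0.0209 in 35S:CO. YAK1 was also the gene called higher in SUC2:CO, by 0.25 ± 0.08 on the log2 scale (adjusted p = 0.0297 with edgeR).

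**Figure D5:**
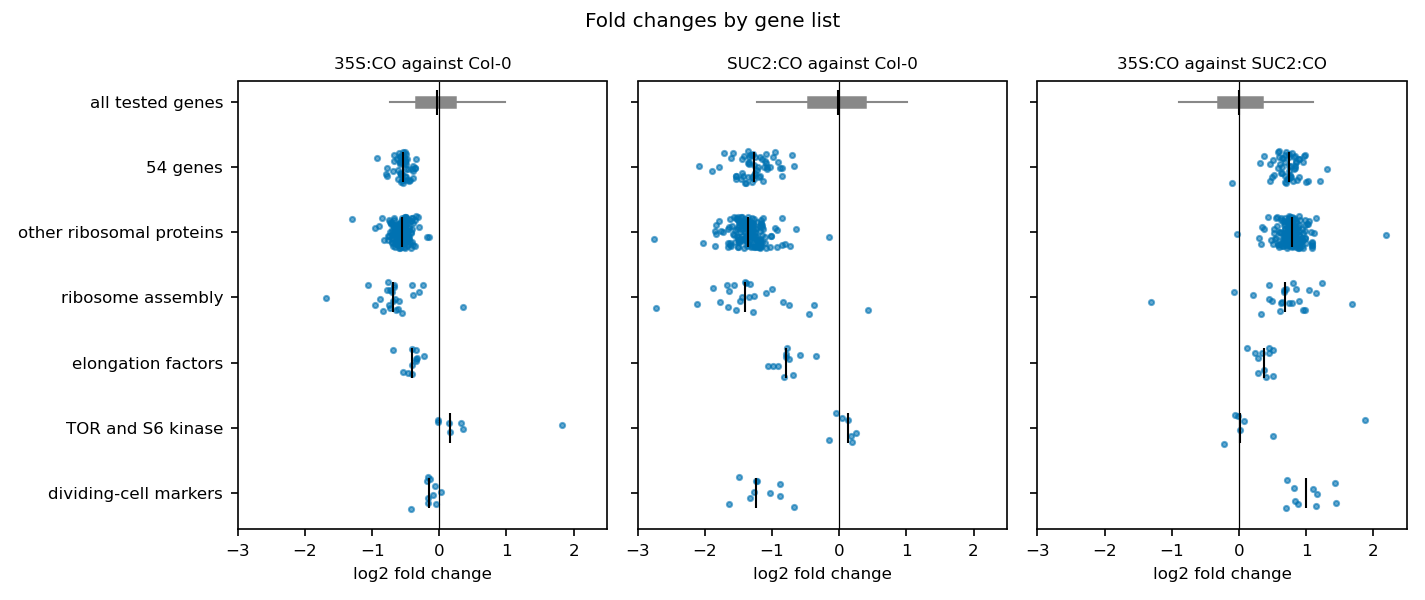
Log2 fold changes (x axis) in the 3 comparisons (panels) for the 54 genes and 5 other lists, with 1 point per gene and a black tick at the list's median. For all tested genes the thick grey bar spans the 25th to 75th percentile and the thin line the 5th to 95th; the 54 genes have medians of -0.54, -1.27 and 0.74.

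Markers of dividing cells had a median log2 difference below 0 in SUC2:CO, as the ribosomal protein genes did. Of 10 markers, none passed the test in 35S:CO (0 at an unadjusted p under 0.05 in edgeR, 0 called by DESeq2 and limma-voom; median log2 difference -0.15), 6 were lower in SUC2:CO (median -1.23) and 1, PCNA1, had a higher level in 35S:CO than in SUC2:CO. In edgeR the shares of all tested genes were 5.48% lower in 35S:CO, 16.8% lower in SUC2:CO and 9.27% higher between the lines. Only 2 of the 10 markers lay below all Col-0 replicates in SUC2:CO, where 23.2% of all tested genes did. With limma-voom 2 were lower in SUC2:CO, with DESeq2 4 were higher in 35S:CO against SUC2:CO, and no marker was at 0. Their summed level was 148, 45.4 and 106 CPM in Col-0, 95.7, 59.9 and 118 CPM in 35S:CO and 51.3, 42.5 and 39.5 CPM in SUC2:CO. Col-0 replicate 2 was as low as the SUC2:CO samples in these markers, while its 54 ribosomal protein genes summed to 11664 CPM, above every 35S:CO and SUC2:CO sample. The samples that were high or low for the 54 genes in their genotype, Col-0 replicate 1 and 35S:CO replicate 2, were so for the dividing-cell markers of Col-0 and 35S:CO too. The part of dividing cells in the difference between genotypes was not tested.

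Of the 5 green-tissue markers, 3 rose in 35S:CO and 2 were higher in SUC2:CO, against 6.32% and 15.5% of all tested genes. The summed level of the markers overlapped between genotypes, at 52040 to 67091 CPM in Col-0, 53144 to 66140 CPM in 35S:CO and 47588 to 58525 CPM in SUC2:CO. LHCB2.1, an antenna protein gene, rose in 35S:CO by 2.68 ± 0.21 on the log2 scale (adjusted p = 2.37e-05 with edgeR). The summed root markers stayed between 0.0391 and 0.591 CPM in all samples.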

How the data were processed

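Strand-specific RNA-seq of 9 seedling samples was analysed from whole-number counts per gene in the table deposited by the authors, with no normalization. The submitters' processing notes name FastQC, STAR, featureCounts, limma and the build TAIR10; the annotation, the use of strand in counting and tool versions are not given in the sources used here. Of 32833 genes, 32548 matched the RefSeq TAIR10.1 annotation, the source of names, exon lengths and upstream sequence. The 54 genes and the other gene lists were chosen with earlier results of these data known, so no p adjusted over a list and no set test is given.

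Genes were filtered with filterByExpr (19149 kept), given TMM (trimmed mean of M) scaling and fitted in edgeR 4.0.16 (R 4.3.3) with a term per genotype over all 9 samples. Differences were put to its quasi-likelihood F-test (two-sided), Benjamini-Hochberg adjusted over all tested genes, and called at an adjusted p under 0.05. Standard errors of log2 fold changes are the fold change divided by the square root of F. Family totals were tested in the same way with paralog counts summed. The fits were also run on simulated counts drawn for each gene on its own. Those counts lack the joint deviations within a sample seen here, so nothing is read from that run. CPM are counts over TMM-scaled library size, and RPKM divide CPM by exon length.

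Named genes were the listed P0, P1 and P2 genes. The rule also took the 6 most raised and the 6 most reduced of those called in each comparison. Any paralogs called in opposite directions (there were none) and the genes of highest and lowest RPKM completed it. The stalk and the size of change gave 17 genes, for which every alternative was computed. In other lists, up to 3 of the most abundant called genes were open to naming. Other genes named were chosen after their values were seen. Some small-subunit genes that the rule would name are not reported here; they remain in the counts and medians over the group.

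Replicate numbers come from the sample titles. Deviations of same-numbered samples from their genotype means correlated across genes at 0.44, 0.30 and 0.25 between 35S:CO and Col-0, so the block with the replicate number is given beside that comparison. The correlations were 0.12, 0.07 and -0.08 between SUC2:CO and Col-0 and -0.04, 0.05 and -0.11 between the lines.

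Alternatives were no filter on low counts, RLE scaling, library totals, DESeq2 1.42.0, limma-voom (limma 3.58.1), only the compared genotypes, the replicate block and each sample left out. Offsets for GC content and transcript length (loess, span 0.3, values for 99.4% of tested genes) were added after seeing the data. No sample was left out of the results given as main.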

Additional observations from a re-analysis of the deposited data

How the results depend on the processing

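In SUC2:CO against Col-0, all 54 genes and all 22 family totals were lower under every alternative run, leave-one-out fits included, and no value of the 17 genes named as stalk members or by size of change changed sign in any fit. In 35S:CO against Col-0 the number of genes called, 15, was 5 with library totals, 37 with DESeq2, 2 with only the compared genotypes, 42 with the replicate block and 45 with GC and length offsets together with the replicate block; the offsets alone gave 18. Leaving out 1 sample at a time gave 1 to 25 genes. The number of family totals called there, 4, was 2 with RLE scaling, 1 with library totals, 18 with DESeq2, 0 with only the compared genotypes (edgeR, with 22 at an unadjusted p under 0.05) and 20 with the replicate block, and 0 to 8 with a sample left out. Between the lines, with AT1G01100 and the P1 total counted, 49 genes and 22 family totals became 15 to 52 and 5 to 22 with a sample left out, and no other alternative moved either count by more than 1.5 times. For these 17 genes, AT1G01100 included, the values under an alternative were set against the threshold. Between 35S:CO and Col-0, 237 stayed on their side of it, 44 lost the call and 25 gained it. Between the lines 285 stayed, 19 lost the call and 2 gained it. All 306 between SUC2:CO and Col-0 stayed, from which nothing is read, since that contrast chose the genes. The cause of these changes was not tested. The block was not needed by the pairing check for the other comparisons, where all 54 and 49 genes were called with it. Family totals were not run with the offsets.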
